A study of Bos taurus with 31 samples.

Results

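The genes followed here are the EGFR and ERK feedback regulators of bovine liver. They were picked by symbol from the 24616 genes of the deposited count matrix, and all 10 were found: the EGFR kinase inhibitor ERRFI1, the Sprouty genes SPRY2 and SPRY4, the Sprouty-related genes SPRED1 and SPRED2, the ERK phosphatase DUSP6, the receptors EGFR and ERBB3, and the receptor regulators LRIG1 and CBL. All 10 passed the filter of at least 20 reads summed over all cows that 15916 genes passed. The choice was not blind to the values. ERRFI1 is in the study's own gene list for GLY_HC versus CON_HC and SPRY2 in its list for GLY_HC versus GLY_LC, so both of these comparisons are given as descriptions without a test for every member. The same holds for the other comparisons of ERRFI1 that use its CON_HC or GLY_HC cows alone, and of SPRY2 that use its GLY_HC or GLY_LC cows alone.

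Epidermal growth factor receptor (EGFR) and its relatives sit on the hepatocyte surface, bind growth factors of the EGF family and pass the signal through RAS, RAF and MEK to the ERK kinases. The pathway is known for its part in hepatocyte growth and liver regeneration. It is held in check by proteins whose genes are often switched on by the signal itself: ERRFI1 (also known as MIG6) binds the kinase domain of the activated receptor, Sprouty and SPRED proteins block the step from the receptor to RAF, DUSP6 removes the activating phosphates from ERK, and LRIG1 and the ubiquitin ligase CBL steer receptors towards degradation.

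RNA-seq of liver came from 31 lactating German Holstein cows, biopsied by puncture in week 16 of a feeding trial, with 1 library per cow. The GLY cows received a total mixed ration whose peas, wheat grain and straw carried glyphosate residues from spraying with Roundup Record before harvest, and the CON cows a control ration. HC rations held 60% concentrate and LC rations 30%. The paper reports a minimal background exposure of the CON cows. It also reports more glyphosate per body weight in GLY_HC than in GLY_LC, through a higher feed intake. Exposure and concentrate level therefore cannot be told apart between the GLY groups. This gave 8 cows in each of CON_HC, CON_LC and GLY_HC, and 7 in GLY_LC, where the samples of a cow were lost. The libraries held 11675775 to 36675542 counted reads (median 19781078). Levels are given as CPM, the share of a library's counts scaled to a fixed total, with TMM factors, which scale libraries for their makeup but not for gene length, so levels were compared between groups and not between genes. In the intestinal epithelium list, which includes the fatty acid carrier FABP2 and the mucin MUC13, the summed level was 319 CPM in GLY_LC cow 912 and at most 1.79 CPM in the remaining cows, where the median of FABP2 and of MUC13 was 0 CPM. In the same library most of the 8 hepatocyte markers were below every other cow. Albumin (ALB) stood at 42899.5 CPM, below the 74791 CPM of the next lowest cow. TTR stood at 2416 CPM (next lowest 2944), CPS1 at 2234 (2946), TF at 11225 (19072) and SERPINA1 at 2804 (3508). Fibrinogen beta (FGB) at 42252 CPM and APOA1 at 714 CPM were above every other cow (at most 33433 and 632 CPM). HNF4A at 125 CPM was near the median of the others, 122 CPM. The main values that use GLY_LC are therefore also given without cow 912.

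ERRFI1 (ENSBTAG00000006609) had its lowest mean level in GLY_HC, the glyphosate group on high concentrate. There it ranged from 76.6 to 229 CPM (median 133, mean 143 ± 45.2, SD, n = 8). In CON_HC it ranged from 111 to 408 CPM (median 344, mean 301 ± 107, n = 8). All 8 GLY_HC cows lay below the CON_HC median, and 6 of the 8 CON_HC cows lay above every GLY_HC cow, while the 2 lowest CON_HC cows fell within the GLY_HC range. In CON_LC it ranged from 151 to 479 CPM (median 252, mean 269 ± 116, n = 8). In GLY_LC it ranged from 85.5 CPM in cow 147 to 597 CPM in cow 912 (median 293, mean 295 ± 165, n = 7). The means thus ran from GLY_HC over CON_LC and GLY_LC to CON_HC, and the upper groups of this order differed by less than their SD. Without cow 912 the GLY_LC mean was 245 ± 108 CPM (n = 6).

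The fitted log2 fold change of ERRFI1 between GLY_HC and CON_HC was -1.08 (standard error, SE, 0.30), a 2.11-fold lower level. This contrast is the basis for choosing the gene and carries no test here. The paper called ERRFI1 in it with DESeq2 and reports a significant qRT-PCR difference in the same direction on the same RNA. It also holds that its glyphosate-responsive genes could be false positives. The corresponding glyphosate comparison at low concentrate did not enter the choice. There the log2 fold change was 0.13 (SE 0.31), with an adjusted p of 0.9999 in the edgeR quasi-likelihood test, and an exact two-sided permutation test of log2 CPM over the 7 and 8 cows gave p = 0.941. Without cow 912 the value was -0.13 (SE 0.31), so even its sign rested on that library. ERRFI1 was among the more variable genes between cows of a group. Its biological coefficient of variation, the spread left in a model of group means, was 0.416 against a median of 0.222 over all tested genes, and the CV of CPM was 56.01% in GLY_LC.

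**Figure D1:**
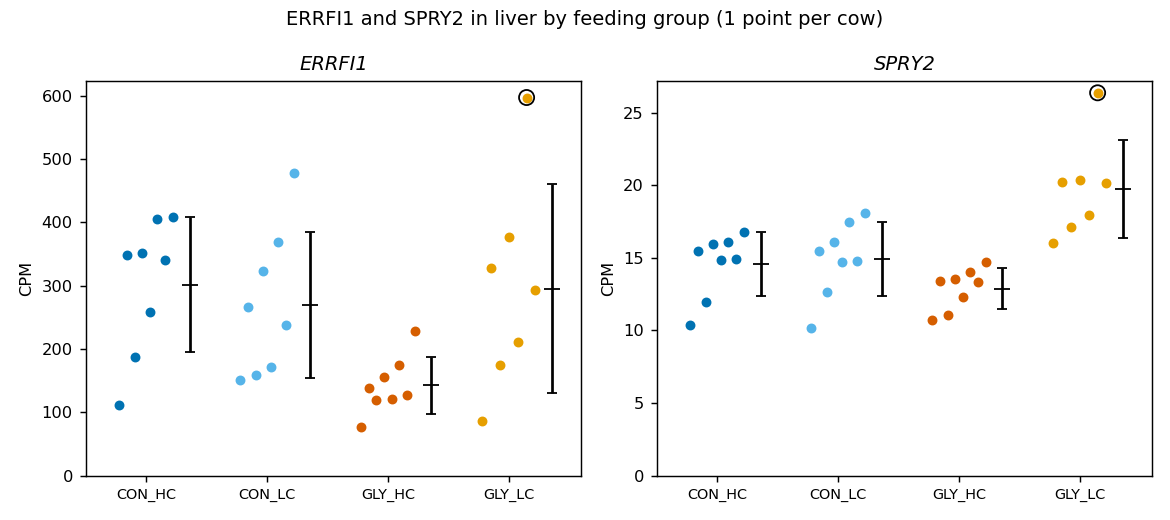
CPM of ERRFI1 (left) and SPRY2 (right) in each cow of the 4 feeding groups on linear axes from 0. Points are cows, the black bar beside each group is the mean ± SD, and the ring marks GLY_LC cow 912, which is the highest of its group in both panels at 597 and 26.4 CPM. The GLY_HC points for ERRFI1 stay at or below 229 CPM, and for SPRY2 every GLY_HC point lies below every GLY_LC point.

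SPRY2 (ENSBTAG00000001774), which restrains RAS and RAF activation downstream of growth factor receptors, had similar levels in the control groups and separated the glyphosate groups. It ranged from 10.4 to 16.8 CPM in CON_HC (median 15.2, mean 14.5 ± 2.20, n = 8). In CON_LC it ranged from 10.2 to 18.1 CPM (median 15.1, mean 14.9 ± 2.57, n = 8). GLY_HC lay slightly lower, at 10.7 to 14.7 CPM (median 13.4, mean 12.9 ± 1.41, n = 8), and all 8 of its cows were below the CON_HC median. GLY_LC lay higher, at 16.1 to 26.4 CPM (median 20.2, mean 19.7 ± 3.38, n = 7). Of the 7 GLY_LC cows, 4 were above every CON_LC cow, and all 7 were above every GLY_HC cow. Groups without any overlap of CPM were found for 0.0942% of the tested genes in GLY_HC versus GLY_LC. Since SPRY2 was picked by the study from this contrast, that separation is part of its choice. Without cow 912 the GLY_LC mean was 18.6 ± 1.86 CPM (n = 6), and the separation remained, because that cow was the highest of its group.

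The fitted log2 fold change of SPRY2 was -0.62 (SE 0.12) for GLY_HC versus GLY_LC, and -0.54 (SE 0.11) without cow 912. It was 0.40 (SE 0.11) for GLY_LC versus CON_LC, 0.32 (SE 0.11) without cow 912, and -0.18 (SE 0.11) for GLY_HC versus CON_HC. Comparisons outside the choice gave smaller values. CON_HC versus CON_LC gave -0.04 (SE 0.11), with an edgeR adjusted p of 0.997. GLY versus CON over both concentrate levels gave 0.11 (SE 0.09), with an edgeR adjusted p of 0.9999. This last comparison, in a model with concentrate as a covariate, was added after the data were seen. It pools values of opposite sign, 0.40 at LC and -0.18 at HC, so its small size is not read as a smaller effect. As a description, the glyphosate effect at HC minus that at LC was -0.58 (SE 0.16) for SPRY2 and -1.21 (SE 0.43) for ERRFI1, or -0.50 (SE 0.15) and -0.95 (SE 0.41) without cow 912. The 2 genes had the same order at HC, with GLY below CON, but at LC only SPRY2 had a difference larger than its SE. Over all tested genes, 0 (0%) passed the thresholds for this interaction in edgeR and 670 (4.21%) had an unadjusted p below 0.05.

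The other 8 members had overlapping ranges in every comparison of 2 groups. Ranges without overlap were rare among all tested genes too, at 0.00628% in GLY_HC versus CON_HC, 0.00628% in GLY_LC versus CON_LC and 0.0188% in CON_HC versus CON_LC. DUSP6 (ENSBTAG00000004587), the phosphatase of ERK, averaged 55.5 ± 17.6 CPM in CON_HC, 59.4 ± 19.4 in CON_LC, 70.8 ± 15.8 in GLY_HC and 66.3 ± 20.002 in GLY_LC. All GLY_HC cows were at 55.9 CPM or more, whereas the GLY_LC cows ran from 28.0 CPM in cow 912 to 85.2 CPM. SPRED1 (ENSBTAG00000032518), a membrane-bound inhibitor of RAS signalling, averaged 18.4 ± 4.30 CPM in CON_HC, 19.5 ± 2.56 in CON_LC, 23.3 ± 5.11 in GLY_HC and 19.999 ± 6.55 in GLY_LC. Its highest cow of all was in GLY_HC, at 32.9 CPM, and its lowest was GLY_LC cow 912, at 13.1 CPM. SPRED2 (ENSBTAG00000019456) was nearly level, with group means from 3.17 ± 0.93 CPM in CON_HC to 3.40 ± 0.52 CPM in GLY_LC. SPRY4 (ENSBTAG00000008250) had group means from 5.31 ± 1.56 CPM in CON_HC to 6.73 ± 1.86 CPM in GLY_LC, and its raw counts of 37 to 240 reads per cow make it less precise than DUSP6.

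The receptors and the proteins that remove them varied more between cows than between groups. EGFR (ENSBTAG00000011628) averaged 36.05 ± 11.1 CPM in CON_HC, 36.5 ± 10.02 in CON_LC, 40.0 ± 11.9 in GLY_HC and 37.8 ± 12.5 in GLY_LC. Its highest level was 63.9 CPM, in GLY_LC cow 912, with the next GLY_LC cow at 38.7 CPM. ERBB3 (ENSBTAG00000010444), which has little kinase activity and signals by pairing with other receptors of the family, averaged from 213 ± 71.1 CPM in GLY_LC to 224 ± 81.8 CPM in CON_LC. Cow 912 had its lowest ERBB3 level, at 68.4 CPM, against 194 CPM in the next GLY_LC cow. LRIG1 (ENSBTAG00000010360) averaged from 16.4 ± 2.25 CPM in CON_HC to 17.8 ± 1.78 CPM in GLY_HC. CBL (ENSBTAG00000006817) averaged from 1.66 ± 0.46 CPM in GLY_LC to 2.01 ± 0.96 CPM in CON_LC, with only 16 to 78 raw reads per cow.

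**Figure D2:**
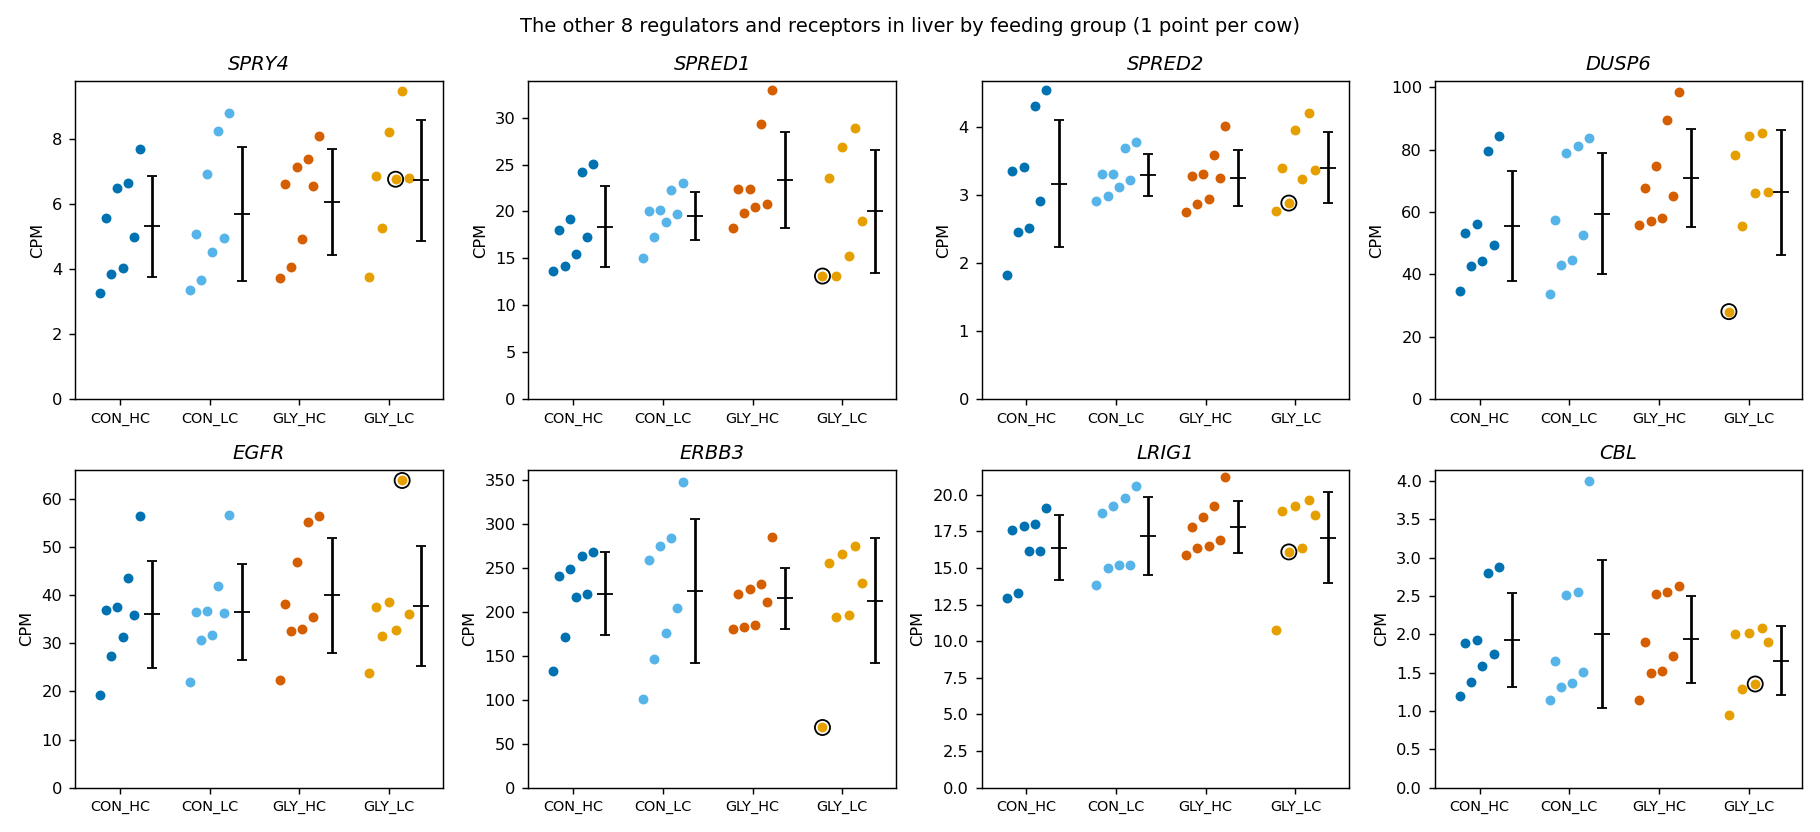
CPM of the other 8 members in each cow of the 4 feeding groups on linear axes from 0, each with its own scale. Points are cows, black bars are mean ± SD, and rings mark GLY_LC cow 912. The groups overlap in every panel, and the ringed cow is the highest of its group for EGFR (63.9 CPM) and the lowest for SPRED1, DUSP6 and ERBB3.

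Glyphosate was compared within each concentrate level. In GLY_HC versus CON_HC, ERRFI1 lay apart from the other members in its size. The 8 members other than ERRFI1 and SPRY2 had log2 fold changes from -0.03 to 0.35, of which 6 were above 0. Among the 8, the values of SPRED2, ERBB3 and CBL took either sign depending on which cow was left out. The largest were DUSP6 at 0.35 (SE 0.21) and SPRED1 at 0.34 (SE 0.16), so these inhibitors were on the opposite side of 0 from ERRFI1. Of the 10 members, 0 met the call rule in edgeR (unadjusted p below 0.05 and Benjamini-Hochberg adjusted p below 0.1), where 0% of all tested genes were called, and nothing is read from that count. The unadjusted p was below 0.05 for 464 of all tested genes in edgeR, which is 2.92%.

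At low concentrate the comparison of GLY_LC with CON_LC could be tested for 9 members, all but SPRY2. None was called, against 0.0628% of all tested genes, which is 10 genes. These 10 include FABP2, BCO1 and OLFM4 of the intestinal epithelium list, which were at most 0.163 CPM in every cow but 912. This share thus rests in part on that library. None of the 9 members had an unadjusted p below 0.05 in edgeR, against 5.65% of all tested genes, or in DESeq2, whose count of calls among these 9 was also 0. The log2 fold changes ran from -0.27 (SE 0.25) for CBL to 0.24 (SE 0.22) for SPRY4, and their median was 0.05 against 0.00 over all tested genes. Without cow 912 the value of DUSP6 moved from 0.16 (SE 0.22) to 0.30 (SE 0.20), that of EGFR from 0.05 (SE 0.21) to -0.12 (SE 0.21), that of ERBB3 from -0.08 (SE 0.23) to 0.08 (SE 0.19) and that of SPRED1 from 0.03 (SE 0.17) to 0.11 (SE 0.16), and again none was called. SEs of this size leave room for changes in level that the test could not tell from 0.

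Over both concentrate levels together, GLY versus CON was tested for the 9 members other than ERRFI1, and none was called, against 0% of all tested genes. The largest value was that of DUSP6, at 0.26 (SE 0.15) with an edgeR adjusted p of 0.9999. None of the 9 had an unadjusted p below 0.05 in edgeR, against 3.92% of all tested genes, or in DESeq2. Without cow 912, DUSP6 at 0.33 (SE 0.13) and SPRED1 at 0.24 (SE 0.11) had unadjusted edgeR p of 0.0199 and 0.0407, and both kept an adjusted p of 0.9999. The share of all genes with such a p without that cow is not given here, so nothing is read from these p-values. Both values also include the GLY_HC versus CON_HC difference, which is a description.

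**Figure D3:**
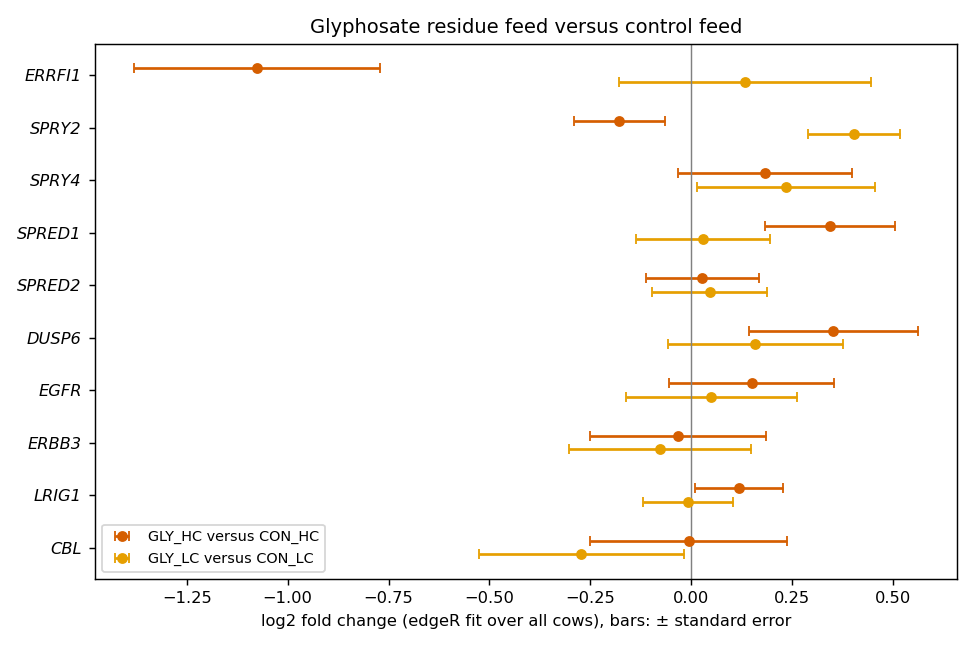
Fitted log2 fold change of each member for GLY_HC versus CON_HC (dark orange) and GLY_LC versus CON_LC (light orange), with bars of ± 1 SE from the edgeR fit over all 31 cows. ERRFI1 at HC is the only value below -0.5, at -1.08, and SPRY2 is the only member with a bar below 0 at HC and above 0 at LC.

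The concentrate proportion was compared in the same way. In the control cows, CON_HC versus CON_LC could be tested for the 9 members other than ERRFI1, and none was called, against 0% of all tested genes in edgeR. None had an unadjusted p below 0.05 in edgeR, against 5.96% of all tested genes, or in DESeq2. All 9 values lay slightly below 0, from -0.10 (SE 0.21) for DUSP6 to -0.02 (SE 0.21) for EGFR, each smaller than its SE. ERRFI1 itself, as a description, had a value of 0.16 (SE 0.30).

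In the glyphosate cows, GLY_HC versus GLY_LC was taken as a description for all members. The values of ERRFI1 and SPRY2 were -1.05 (SE 0.31) and -0.62 (SE 0.12), and those of the other 8 members ran from -0.15 to 0.22. By the call rule 1 of the 10 members, SPRY2, was called in edgeR, where 0.201% of all tested genes were called and 12.5% had an unadjusted p below 0.05. SPRY2 was chosen from this contrast, so nothing is read from that count. The genes called here include FABP2, MUC13, OLFM4 and BCO1 of the intestinal epithelium list, which cow 912 carried. The same genes are among those called in HC versus LC over both treatments. Without cow 912 the value of ERRFI1 was -0.78 (SE 0.30), that of EGFR moved from 0.08 (SE 0.21) to 0.26 (SE 0.21) and that of ERBB3 from 0.02 (SE 0.23) to -0.14 (SE 0.19).

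HC versus LC over both treatments, with glyphosate as a covariate, was tested for the 9 members other than SPRY2. None was called, while 1.45% of all tested genes were, and none had an unadjusted p below 0.05 in edgeR, against 13.7% of all tested genes, or in DESeq2. The largest value was that of ERRFI1, at -0.43 (SE 0.24) with an edgeR adjusted p of 0.448, which became -0.28 (SE 0.22) without cow 912. The other 8 members ran from -0.12 to 0.08. SPRY2, as a description, had -0.32 (SE 0.09). The log2 fold changes within the treatments were 0.16 in CON and -1.05 in GLY for ERRFI1, and -0.04 in CON and -0.62 in GLY for SPRY2, so the pooled values average unlike ones.

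**Figure D4:**
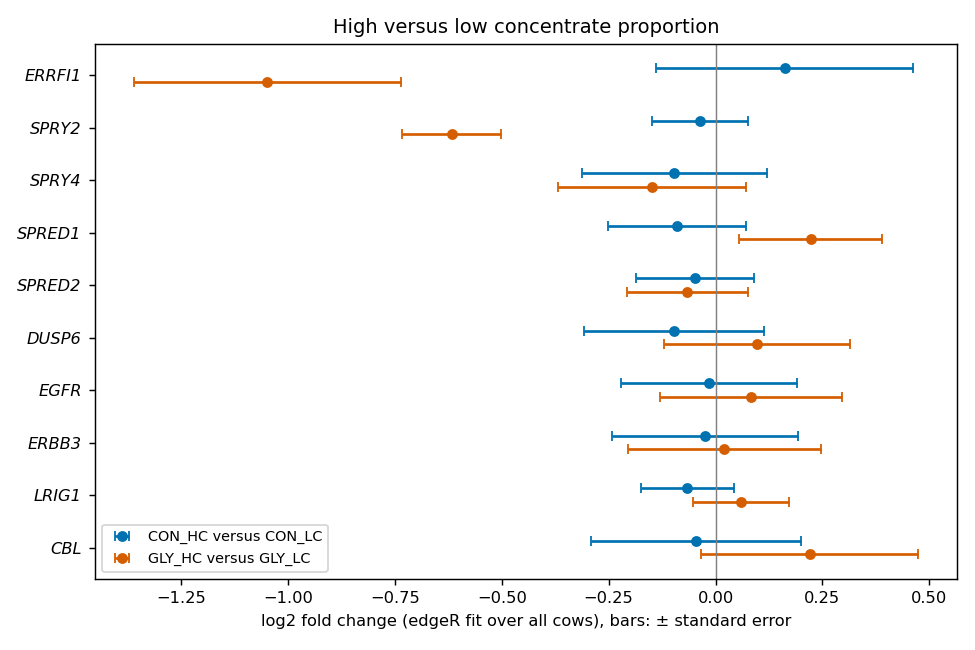
Fitted log2 fold change of each member for CON_HC versus CON_LC (blue) and GLY_HC versus GLY_LC (dark orange), with bars of ± 1 SE from the edgeR fit over all 31 cows. The blue values lie between -0.10 and 0.16, and the orange values of ERRFI1 (-1.05) and SPRY2 (-0.62) are the lowest in the plot.

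Liver biopsies hold several cell types, and in bulk tissue fewer cells of a type and less RNA per cell cannot be told apart. Markers of the other cell types were therefore summed per cow. For the 6 stellate cell and fibroblast markers, which include the collagens COL1A1 and COL3A1, the sum was 126 to 207 CPM in GLY_HC (median 189), 176 to 279 CPM in CON_HC (median 229), 198 to 378 CPM in GLY_LC (median 266) and 155 to 1715 CPM in CON_LC (median 281). GLY_HC was thus the group with the lowest median of these markers as well as of ERRFI1 and SPRY2. The low median was not particular to this list, since the hepatocyte markers below also had their lowest median in GLY_HC. The 6 stellate cell and fibroblast markers were also not alike in GLY_HC versus CON_HC. Their log2 fold changes were -0.746 for ACTA2, -0.335 for DCN, -0.203 for PDGFRB, -0.198 for COL3A1, -0.0076 for COL1A1 and 0.097 for LRAT. In HC versus LC over both treatments, 1.45% of all tested genes were called. There 1 of the 6 was called, the matrix proteoglycan DCN at -0.50. Of the 6 macrophage markers 2, CD68 at 0.61 and CD5L at 0.41, were called as higher in HC. Without cow 912 DCN was still called and 0 of the macrophage markers were. The share of all genes called without that cow is not given here, so nothing is read from this change. The sum of the 8 hepatocyte markers was 145770 to 193030 CPM in GLY_HC and 158006 to 211688 CPM in CON_HC. Its median was 155074 CPM in GLY_HC, 161135 in CON_LC, 174589 in GLY_LC and 179493 in CON_HC. The median sums of the macrophage and lymphocyte markers were highest in GLY_HC, at 663 and 52.8 CPM. Those of the bile duct and endothelial markers in GLY_HC, 37.9 and 222 CPM, were neither the lowest nor the highest of the groups. The 5 measured bile duct markers summed to 21.97 to 47.0 CPM in GLY_HC and 30.1 to 52.7 CPM in CON_HC. The 6 endothelial markers summed to 192 to 296 CPM and 183 to 290 CPM in the same groups, and the 5 lymphocyte markers to 34.3 to 90.2 CPM and 33.7 to 66.6 CPM. The part of any of these cell types in the values of ERRFI1 and SPRY2 was not tested.

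Whether the other members moved with ERRFI1 from cow to cow was examined after each gene's group mean was subtracted from its log2 CPM (prior count 2), over all 31 cows and 9 pairs, with cows permuted within groups. SPRED1 had the largest correlation, in the negative direction, with Pearson r = -0.47 (permutation p = 0.0197, adjusted 0.177) and Spearman rho = -0.43 (permutation p = 0.0244, adjusted 0.219). Cows with more ERRFI1 than their group tended to have less SPRED1, but the relation did not pass the adjustment over the pairs. Without the 2 cows farthest from the median of ERRFI1 r was -0.37. Without cow 912 r was -0.395 (permutation p = 0.0554, adjusted 0.499) and rho -0.35 (permutation p = 0.0801). Pearson's r within the groups was -0.71 in CON_HC, -0.14 in CON_LC, -0.31 in GLY_HC and -0.52 in GLY_LC. Spearman's rho was -0.79, -0.29, 0.19 and -0.46 in the same order, so in GLY_HC the sign differed between the measures. The other 8 members had r from -0.29 for DUSP6 (rho -0.21, permutation p of r = 0.167 and adjusted 0.750) to 0.11 for EGFR (rho 0.03, permutation p of r = 0.563 and adjusted 0.873). SPRY2, the other gene with a low GLY_HC level, had r = -0.08 (rho -0.11, permutation p of r = 0.713 and adjusted 0.873), and r = -0.27 without cow 912 (permutation p = 0.177), so no relation between the 2 genes was detectable within groups. For DUSP6 r was -0.11 without that cow.

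The genes whose cow-to-cow pattern was most like that of ERRFI1 were looked for among 11834 other genes with a mean of at least 1 CPM, as a description over the same 31 cows. They were BAG3, a co-chaperone of HSP70 (r = 0.76, rho 0.65), PAXBP1 (r = 0.72, rho 0.73), RASGEF1B, a nucleotide exchange factor of RAP GTPases (r = 0.72, rho 0.61), PSMD6, a subunit of the proteasome (r = 0.70, rho 0.63), and the miRNA gene annotated as bta-mir-3064 (r = 0.69, rho 0.65). The most opposite patterns were those of HES1, a transcriptional repressor and NOTCH target (r = -0.72, rho -0.69), of ENSBTAG00000039366, which has no symbol in the matrix (r = -0.64, rho -0.64), and of HDHD3 (r = -0.62, rho -0.65). The median r over all these genes was -0.01. Without cow 912 r was 0.72 for BAG3, 0.67 for PAXBP1, 0.66 for RASGEF1B and -0.77 for HES1. The values share each cow's library, its depth and its tissue makeup. The group means of BAG3 were 42.5 ± 9.36 CPM in CON_HC, 47.0 ± 9.83 in CON_LC, 29.1 ± 4.79 in GLY_HC and 47.7 ± 27.9 in GLY_LC, and those of RASGEF1B were 61.2 ± 14.7, 53.3 ± 11.8, 40.9 ± 9.61 and 59.2 ± 25.3 CPM in the same order. Both were lowest in GLY_HC, like ERRFI1. In GLY_LC cow 912 the log2 CPM of BAG3 was 1.31 above its group mean. By smaller margins PAXBP1 (43.0 CPM), PSMD6 (23.8 CPM) and bta-mir-3064 (1.66 CPM) also had their lowest mean in GLY_HC. Their next lowest means were 43.7 CPM in CON_LC, 24.7 CPM in CON_HC and 1.70 CPM in CON_LC. HDHD3, with an opposite pattern, had its lowest mean in GLY_HC as well, at 45.8 CPM, next to 46.7 CPM in GLY_LC. A lowest mean in GLY_HC was thus not particular to the genes most like ERRFI1. The share of all genes with their lowest mean there is not given here, so nothing is read from these orders. HES1 was low throughout, with means from 3.85 ± 1.26 CPM in GLY_LC to 5.33 ± 1.14 CPM in GLY_HC.

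**Figure D5:**
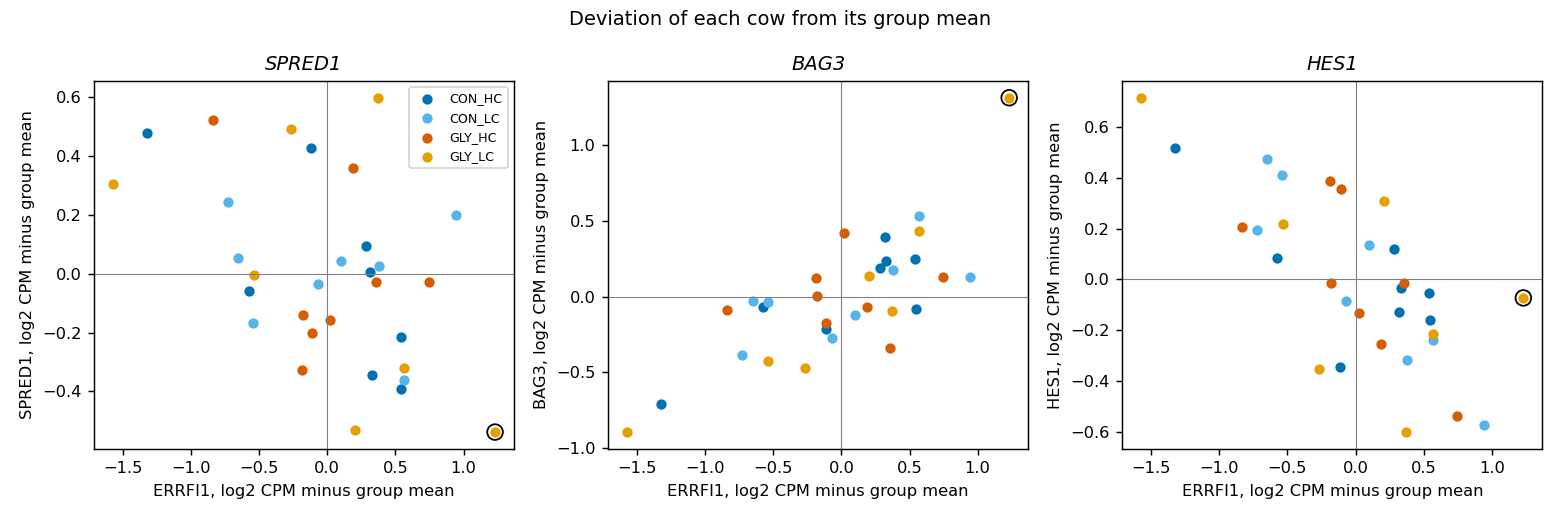
Each cow's log2 CPM minus its group mean for ERRFI1 (horizontal axis) against SPRED1, BAG3 and HES1 (vertical axes). Colours give the feeding group and the ring marks GLY_LC cow 912. SPRED1 goes loosely against ERRFI1 (r = -0.47), BAG3 goes with it (r = 0.76) and HES1 against it (r = -0.72).

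Other genes of the pathway were read from lists of its ligands, receptors, RAS to ERK cascade, further feedback regulators and ERK-dependent transcripts, together with a list of glucocorticoid-responsive transcripts. Of their genes, 71 that are not members were tested. None was called by edgeR in any of the 6 comparisons above, and the largest number with an unadjusted p below 0.05 was 6 of 71 (8.45%). This number occurred in GLY_LC versus CON_LC, GLY_HC versus GLY_LC and HC versus LC over both treatments, where 5.65%, 12.5% and 13.7% of all tested genes had such a p. Without cow 912 it was 3, 4 and 6 of 71 in these comparisons. DESeq2 on all cows called 1 of them, the cyclin gene CCND1 in GLY_HC versus GLY_LC, and none in the other 5 comparisons. The shares over all genes belong to the edgeR fit of all cows. Nothing is read from the counts without cow 912 or from the DESeq2 call, which have no such share beside them.

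Among the ligands, 8 of the listed 11 were measured, and 0 were called in either direction. Amphiregulin (AREG) had the smallest p in HC versus LC over both treatments, with group means of 1.03 ± 0.97 CPM in CON_HC, 0.48 ± 0.39 in CON_LC, 1.38 ± 1.09 in GLY_HC and 0.44 ± 0.61 in GLY_LC. Its log2 fold change was 1.35 (SE 0.48), with an edgeR adjusted p of 0.186, and it was 1.26 (SE 0.48) without cow 912. Epiregulin (EREG) followed at 0.35 (SE 0.21). In GLY_LC versus CON_LC the smallest p were those of the neuregulin gene NRG2 at 0.39 (SE 0.20) and of EPGN, which was at or below 0.077 CPM on average in all groups. The median log2 fold change of the ligands in HC versus LC was 0.13, against -0.01 over all tested genes. The receptor ERBB2, the partner of EGFR and ERBB3, averaged 211 ± 53.8 CPM in CON_LC to 254 ± 36.1 CPM in GLY_HC and differed by 0.16 (SE 0.09) between HC and LC, with an edgeR adjusted p of 0.474.

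In the RAS to ERK cascade, 21 of 22 listed genes were measured and 0 were called in either direction. The list medians were -0.02 in GLY_LC versus CON_LC and -0.04 in HC versus LC. In GLY_LC versus CON_LC the smallest p belonged to SOS1, which loads RAS with GTP, at 0.28 (SE 0.14). In HC versus LC they belonged to the RAF kinase gene ARAF at 0.13 (SE 0.06) and the MEK gene MAP2K1 at -0.11 (SE 0.06). Of the 17 listed feedback regulators outside the members, 15 were tested and 0 were called. The medians of that list were 0.00 in GLY_LC versus CON_LC and -0.03 in HC versus LC. SPRY1 had 22.4 ± 2.15 CPM in CON_HC, 23.8 ± 2.71 in CON_LC, 20.8 ± 1.64 in GLY_HC and 24.5 ± 3.96 in GLY_LC, which is the order of groups seen for SPRY2. Its HC versus LC value was -0.16 (SE 0.06), with an edgeR adjusted p of 0.229, and that of SPRY3 was -0.50 (SE 0.21), with an edgeR adjusted p of 0.277. LRIG3 at 0.45 (SE 0.21) and SOCS5 at 0.23 (SE 0.13) had the smallest p in GLY_LC versus CON_LC.

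All 16 transcripts known to follow ERK activity were tested and 0 were called in either direction. Their median was 0.03 in GLY_LC versus CON_LC and 0.15 in HC versus LC, where the immediate-early genes JUNB at 0.60 (SE 0.25) and EGR1 at 0.67 (SE 0.36) had the smallest p. PHLDA1 had a log2 fold change of 1.17 (SE 0.39) in GLY_LC versus CON_LC, with an edgeR adjusted p of 0.521, and 0.60 (SE 0.34) without cow 912, whose 24.4 CPM was the highest of its group. CCND1 had -0.81 (SE 0.33) in the same comparison and -0.66 (SE 0.32) without that cow. Of the 10 glucocorticoid-responsive transcripts, which were listed because glucocorticoids are known to raise ERRFI1, 0 were called in either direction, with medians of -0.04 in GLY_LC versus CON_LC and -0.01 in HC versus LC. The metallothionein gene MT2A, at 1.69 (SE 0.50) in GLY_LC versus CON_LC, rested on cow 912, where it reached 1143 CPM, and was 0.48 (SE 0.35) without it. TSC22D3 had -0.39 (SE 0.18) in that comparison and -0.30 (SE 0.19) without cow 912. In HC versus LC, FKBP5 had -0.51 (SE 0.22) and -0.25 (SE 0.18) without that cow, and DUSP1 had 0.29 (SE 0.19). Without cow 912, 0 genes of this list had an unadjusted edgeR p below 0.05 in either comparison.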

How the data were processed

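The authors prepared stranded mRNA libraries (TruSeq) from liver, sequenced them as paired ends on an Illumina HiSeq, trimmed reads with Trim Galore, aligned them to UMD3.1 with HISAT2 2.1.0 and assigned reads with a unique alignment to genes with HTSeq 0.8.0. Whether HTSeq used the strand is not given in the sources used here. The deposited raw counts, whole reads per gene for 31 cows, were the only values used. A deposited normalized table was left out because the count test needs raw reads. Authors' means or fold changes were not used, and 0 columns of per-sample values were left unmapped.

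Counts were fitted with edgeR 4.0.16 (TMM factors, quasi-likelihood F test, all cows in 1 model of the 4 groups) for genes with at least 20 reads in all, and p-values were adjusted by Benjamini-Hochberg over all 15916. HC versus LC over both treatments and GLY versus CON over both concentrate levels came from an additive model. A gene was called at p under 0.05 and adjusted p under 0.1. The SE is the log2 fold change divided by the root of F. DESeq2 1.42.0 and the other alternatives are given in the closing section. Correlations used 100000 permutations within groups. P-values measure the spread between cows, 1 library each.

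Members and lists were chosen with earlier results of these data known. Named were the 10 members, in each list the genes called or otherwise the 2 smallest p in GLY_LC versus CON_LC and in HC versus LC, and the 5 genes most like and 3 most unlike ERRFI1. Apart from 1 list gene, which is not reported here, all genes this rule names are given. Of the listed genes EGF, NRG3, NRG4, ERBB4, GAB2, SOX9 and CDX2 matched no symbol and are not analysed here, and SPRED3 and DUSP9 fell below the filter. No coordinates are given, since the gene table at hand is of another build than UMD3.1.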

Additional observations from a re-analysis of the deposited data

Results flagged for a closer look

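In 4 of the 40 combinations of a member and a feeding group, the highest or lowest cow lay farther from the rest of its group than Dixon's 95% limit allows. Chance flags about 1 in 20 such groups. All 4 were in GLY_LC, the group with 7 cows, and 3 of them were cow 912, with 26.4 CPM of SPRY2 against 20.4 CPM in the next cow, 63.9 CPM of EGFR against 38.7 CPM, and 68.4 CPM of ERBB3 against 194 CPM. The fourth was LRIG1 in cow 102, at 10.8 CPM against 16.1 CPM in the next lowest cow. The same library of cow 912 held the intestinal epithelium transcripts described above, and their part in its SPRY2, EGFR and ERBB3 levels was not tested.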

How the results depend on the processing

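No paired analysis was possible because each cow number occurs in 1 feeding group only, so the groups share no numbers. Of 1601 values recomputed under alternative settings, 1523 kept their direction and their side of the threshold, or moved by less than the spread between cows. The log2 fold change of ERRFI1 in GLY_HC versus CON_HC was -1.08 under every scaling, filter and tool tried and ran from -1.20 to -0.98 with each cow left out. ERRFI1 was chosen from this contrast and these cows, so nothing is read from that steadiness. In HC versus LC over both treatments DESeq2 and the average of both contrasts each called 1 member, SPRY2, and leaving out each cow gave 0 to 1. SPRY2 was given only as a description in that comparison because of how it was chosen, so nothing is read from its calls. In GLY_HC versus GLY_LC the count of 1 became 2 in DESeq2, 0 with only the compared groups, and 0 to 2 with each cow left out. It was 0 without GLY_HC cow 32, GLY_HC cow 154 or GLY_LC cow 912, and 2, with ERRFI1 added, without GLY_LC cow 147. The main edgeR fit called 0.201% of all tested genes in GLY_HC versus GLY_LC, and the shares under the other settings are not given here. That comparison is a description for every member, so nothing is read from these counts. The value of ERBB3 in HC versus LC changed sign, to 0.000512 with RLE factors and 0.000448 in DESeq2.

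With each cow left out, these values took both signs. In GLY_LC versus CON_LC they were ERRFI1 (-0.13 to 0.30), SPRED1 (-0.0821 to 0.11), SPRED2 (-0.0127 to 0.0901), EGFR (-0.12 to 0.17), ERBB3 (-0.18 to 0.0825) and LRIG1 (-0.0484 to 0.0774). In HC versus LC they were DUSP6 (-0.0694 to 0.0427), EGFR (-0.0241 to 0.11), ERBB3 (-0.0749 to 0.0575) and LRIG1 (-0.0476 to 0.019996), and in CON_HC versus CON_LC SPRY2 (-0.10 to 0.0212). In GLY_HC versus CON_HC they were SPRED2 (-0.0573 to 0.131), ERBB3 (-0.11 to 0.0127) and CBL (-0.0838 to 0.101). Without cow 912 the correlation with ERRFI1 changed sign for EGFR (r = -0.0446) and ERBB3 (r = 0.22). The cause was not tested. The exact permutation test of ERRFI1 at low concentrate gave p = 0.941 with either prior count. CBL, SPRED2 and SPRY4, with the fewest reads, are the least precisely counted members.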
